A study of Mus musculus with 16 samples.

Results

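The genes described here are 10 members of the ADAMTS superfamily of secreted extracellular matrix proteins, measured as RNA in sorted mouse cardiac fibroblasts in which the transcription factor TCF21 was deleted or overexpressed. They were chosen by symbol from a fixed list. Its rule named no measured value, but the list was chosen with earlier results of these data known. The members are 10 of the 19707 gene symbols in the 3 deposited tables of normalized counts. The members comprise 3 ADAMTS-like genes (Adamtsl1, Adamtsl2 and Adamtsl3) and 7 protease genes (Adamts1, Adamts4, Adamts5, Adamts9, Adamts15, Adamts2 and Adamts10). All 10 were listed in each table, and all 10 passed the filter on low values there, a table mean of at least 10. The lowest table mean of a member was 97.3 normalized counts.

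ADAMTS proteins are secreted metalloproteases with thrombospondin type repeats. Several cut the large proteoglycans versican and aggrecan, others remove the amino-terminal propeptide of fibrillar procollagens, and a further branch binds fibrillin microfibrils. ADAMTS-like proteins have the same ancillary repeats but no protease domain, and some of them bind fibrillin or latent TGF-beta binding proteins in the matrix. In the heart, fibroblasts make most of this matrix.

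Adult mice of 8 to 12 weeks gave 16 libraries in 6 groups, and every mouse had received tamoxifen and carried a Rosa26 EGFP reporter behind a loxP-flanked stop, by which fibroblasts were sorted. In uninjured hearts, Tcf21-MerCreMer:Tcf21-fl mice (n = 3), called deleted here, were set against Tcf21-MerCreMer controls (n = 3), 2 weeks after tamoxifen. In a second setting mice received angiotensin II and phenylephrine, agonists that cause cardiac fibrosis, for 1 week. There deleted mice (n = 2) were set against Tcf21-MerCreMer controls (n = 3). In the third, gain mice with Pdgfra-creERT and a Col1a1-TCF21 transgene (n = 2) were set against Pdgfra-creERT controls (n = 3), with the same 1 week of infusion. Cre was therefore active in cells that express Tcf21 in the loss groups and in cells that express Pdgfra in the gain groups, and the controls carried the Cre allele and the reporter too. The labels do not say that each library came from its own animal, so p-values measure the spread between libraries, which may be technical.

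The libraries summed to between 27814940 and 40970391 normalized counts. The sorted cells had the markers of their label: 6 fibroblast marker genes (Pdgfra, Col1a1, Col3a1, Dcn, Lum and Dpt) summed to between 1376190 and 3345470 normalized counts per library, whereas 6 mural cell markers summed to at most 14415, 6 myeloid markers to at most 4263, 6 cardiomyocyte markers to at most 577 and 6 endothelial markers to at most 534. Of 5 lymphoid markers 1 was listed in each loss table, at no more than 7.60, and 0 in the gain table, where they were not analysed. Tcf21 averaged 1405 ± 271 in deleted and 7805 ± 288 in control libraries without infusion, 222 ± 51.9 in deleted and 2042 ± 684 in control libraries with infusion, and 14161 ± 932 in gain and 5813 ± 585 in control libraries (SD, n as above). Within each table, any pair of libraries correlated at a Pearson's r of 0.944 to 0.981 on the log2 scale. In bulk RNA, fewer cells that express a gene and less RNA per cell cannot be told apart.

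TCF21 is a basic helix-loop-helix protein, a family whose dimers bind the E-box CANNTG. RefSeq promoters on GRCm38.p6 were matched for 5 of the 10 members (Adamtsl1, Adamts4, Adamts5, Adamts10 and Adamts15 had no match). The 250 bases before the start are printed for the 2 members that passed a test, Adamtsl2 and Adamtsl3, and for Adamts2, which passed none and has as many copies of CAGCTG as Adamtsl2, with every CANNTG in capitals. The windows are chr2:27079129-27079378 for Adamtsl2, chr7:82335444-82335693 for Adamtsl3 and chr11:50601835-50602084 for Adamts2, all on the plus strand and printed 5′ to 3′.
Adamtsl2: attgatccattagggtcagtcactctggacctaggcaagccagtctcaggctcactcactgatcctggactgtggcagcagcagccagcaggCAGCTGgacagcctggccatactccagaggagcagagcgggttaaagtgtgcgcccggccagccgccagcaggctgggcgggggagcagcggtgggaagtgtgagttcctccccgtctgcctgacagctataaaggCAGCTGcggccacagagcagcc
Adamtsl3: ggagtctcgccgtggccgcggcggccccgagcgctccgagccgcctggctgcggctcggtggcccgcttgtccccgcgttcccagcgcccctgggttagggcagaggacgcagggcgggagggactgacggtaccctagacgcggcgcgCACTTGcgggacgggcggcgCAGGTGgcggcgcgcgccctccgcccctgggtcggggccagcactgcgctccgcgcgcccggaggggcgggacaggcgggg
Adamts2: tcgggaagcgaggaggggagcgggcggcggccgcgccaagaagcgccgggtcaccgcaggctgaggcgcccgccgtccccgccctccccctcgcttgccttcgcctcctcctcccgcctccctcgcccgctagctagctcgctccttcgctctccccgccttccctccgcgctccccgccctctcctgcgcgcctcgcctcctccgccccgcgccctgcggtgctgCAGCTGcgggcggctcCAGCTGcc
The Adamtsl2 window held 2 copies of CAGCTG, 158 and 22 bases before the start. The Adamtsl3 window held CACTTG at 101 bases and CAGGTG at 81 bases before the start, and no CAGCTG. The Adamts2 window held 2 copies of CAGCTG, at 24 and 8 bases. Of the other matched members, Adamts9 had 1 CAGCTG, at 159 bases, and Adamts1 had no CANNTG. Both motifs read the same on both strands, and CAGCTG is a form of CANNTG. Among 32851 RefSeq promoter windows of the same length, 66.2% held CANNTG, 13.0% held CAGCTG and 1.26% held CAGCTG at least 2 times. These matches describe letters in a window, and binding of TCF21 was not analysed here.

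Across the 3 comparisons, Adamtsl2 was the member that passed the test in both infused settings, in opposite directions: it fell in deleted fibroblasts and rose in gain fibroblasts. Adamtsl3 fell in gain fibroblasts. None of the 8 others passed in any comparison, and no member passed in uninjured hearts. Passing means a Benjamini-Hochberg adjusted p under 0.05 from limma, over all genes tested in that table.

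Adamtsl2 encodes a secreted glycoprotein that binds fibrillin-1 and LTBP1 and is mutated in the human connective tissue disorder geleophysic dysplasia. The gene lies on chromosome 2 at 27079379-27108981 on the plus strand (GRCm38, GENCODE). With infusion, Adamtsl2 had 5434 and 4737 normalized counts in deleted libraries, against 11075, 10298 and 10615 in control libraries. The groups did not overlap, and the deleted libraries both lay under every control. The mean was 2.10-fold lower (log2 fold change -1.07, SE 0.10, 95% interval -1.31 to -0.83, limma adjusted p = 0.00659), which ranked it 42nd by p of 14799 genes. It was 1 of 10 members that fell, beside a background in which 0.588% of all tested genes fell and 0.324% rose. The call was lost without the second deleted library (log2 fold change -0.97, adjusted p = 0.0823), without the second control library (-1.10, adjusted p = 0.0578) and without limma's variance trend (adjusted p = 0.0562). Over all alternatives tried the adjusted p ran from 0.000276 to 0.0823.

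In gain fibroblasts Adamtsl2 had 77781 and 57679 normalized counts, against 22983, 27228 and 26178 in the Pdgfra-creERT controls. Both gain libraries were above every control. The mean was 2.64-fold higher (log2 fold change 1.40, SE 0.16, 95% interval 1.03 to 1.76, limma adjusted p = 0.00760), rank 68 of 15369 genes. In this comparison 1.57% of all tested genes rose and 2.57% fell. The rise passed the threshold with each library left out in turn but not without the variance trend (adjusted p = 0.0670), and the adjusted p over all alternatives ran from 0.00189 to 0.0670. In uninjured hearts, the deleted libraries had 7946, 10163 and 10899 normalized counts, against 11766, 13416 and 11279 in controls. The groups did not overlap there either, but the difference was smaller and did not pass (log2 fold change -0.34, SE 0.12, 95% interval -0.62 to -0.06, adjusted p = 0.159).

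**Figure D1:**
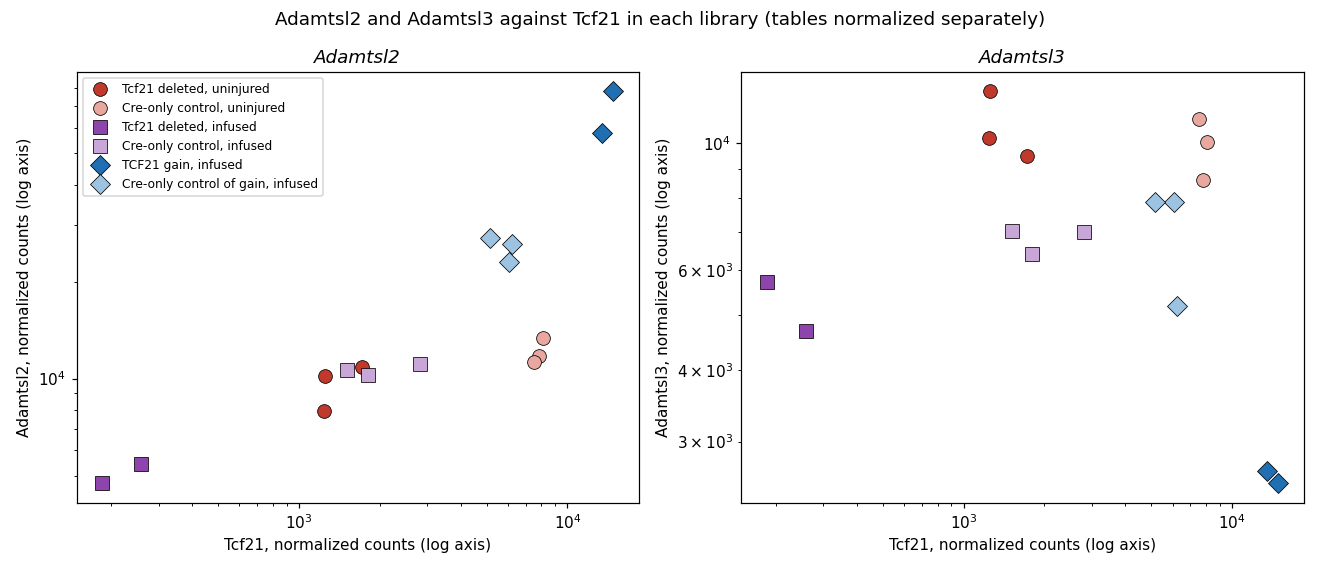
Normalized counts of Adamtsl2 (left) and Adamtsl3 (right) against those of Tcf21 in each of the 16 libraries, both axes logarithmic; colours and shapes mark the 6 groups, and the 3 tables were normalized separately. Within their own tables, Adamtsl2 lies below its controls in the deleted infused libraries (4737 and 5434) and above them in the gain libraries (57679 and 77781), while Adamtsl3 lies below its controls in the gain libraries (2536 and 2660).

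The effects of gain and loss on Adamtsl2 with infusion were then set against each other in 1 model, as the gain log2 fold change minus the loss log2 fold change. The difference was 2.47 (SE 0.19, 95% interval 2.04 to 2.90, limma adjusted p = 0.000199), rank 13 of 14319 genes. Over those genes 2.93% had a difference past the threshold, against 1 of 10 members. The value stayed between 2.25 and 2.69 with each of the 10 libraries left out in turn. The levels themselves cannot be read across the tables: the gain controls averaged 25463 normalized counts of Adamtsl2 and the infused Tcf21-MerCreMer controls 10663, a ratio of 2.39, and these control groups differ in Cre allele and in normalization. The loss log2 fold change of Adamtsl2 with infusion minus that without was -0.73 (SE 0.18, 95% interval -1.12 to -0.34), which did not pass after adjustment over 14130 genes (adjusted p = 0.225). Without the first uninjured deleted library it was -0.87 and passed (adjusted p = 0.0457, range over alternatives 0.0457 to 0.700). With all libraries 0 members passed in that comparison, beside 0.149% of all genes, and 3 had an unadjusted p under 0.05, beside 11.6% of all genes. In the gain minus loss comparison 6 had one, beside 16.3% of all genes.

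Adamtsl3, also named punctin-2, encodes a matrix protein without protease domain. It lies on chromosome 7 at 82335694-82614450 on the plus strand. In gain fibroblasts it had 2536 and 2660 normalized counts, against 7880, 7889 and 5180 in controls. The gain libraries were close to each other and below all controls, of which the third was the lowest. The mean was 2.64-fold lower (log2 fold change -1.40, SE 0.18, 95% interval -1.83 to -0.97, limma adjusted p = 0.0115). The call rested on having both gain libraries: without the first it was -1.37 (adjusted p = 0.0648) and without the second -1.43 (adjusted p = 0.0642). It was lost without the variance trend too, at the top of a range of 0.000144 to 0.0900 over all alternatives. Under deletion with infusion, Adamtsl3 had 4693 and 5717 normalized counts in deleted libraries, against 6992, 6392 and 7020 in controls. These groups did not overlap either, and the deleted libraries were again below (log2 fold change -0.39, SE 0.11, adjusted p = 0.192). The gain effect minus the loss effect was -1.01 (SE 0.24, adjusted p = 0.0616). Without the third gain control it was -1.21 and passed (adjusted p = 0.00366, range over alternatives 0.00366 to 0.199). In uninjured hearts the deleted libraries (10226, 12315 and 9495) overlapped the controls (8604, 10035 and 11028).

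Adamtsl1, or punctin-1, on chromosome 4 at 85514172-86428385, was among the least abundant members. It had 131 and 238 normalized counts in gain libraries, against 408, 435 and 318 in controls, with no overlap (log2 fold change -1.11, SE 0.28, adjusted p = 0.0765). Deleted uninjured libraries had 65.2, 86.1 and 182, against 184, 220 and 185 in controls. The third deleted library lay just under the nearest control while the other two were far below, and the interval was wide (log2 fold change -0.95, 95% interval -1.77 to -0.13, adjusted p = 0.179). Without that library the value was -1.37 and passed (adjusted p = 0.0386, range over alternatives 0.0386 to 0.421). With infusion, deleted libraries had 366 and 400 normalized counts and overlapped the controls at 377, 436 and 534. In the fits with all libraries, no weights and no block, no comparison passed for Adamtsl1. With library weights the gain value did (-1.18, adjusted p = 0.0424, range over alternatives 0.0129 to 0.300).

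**Figure D2:**
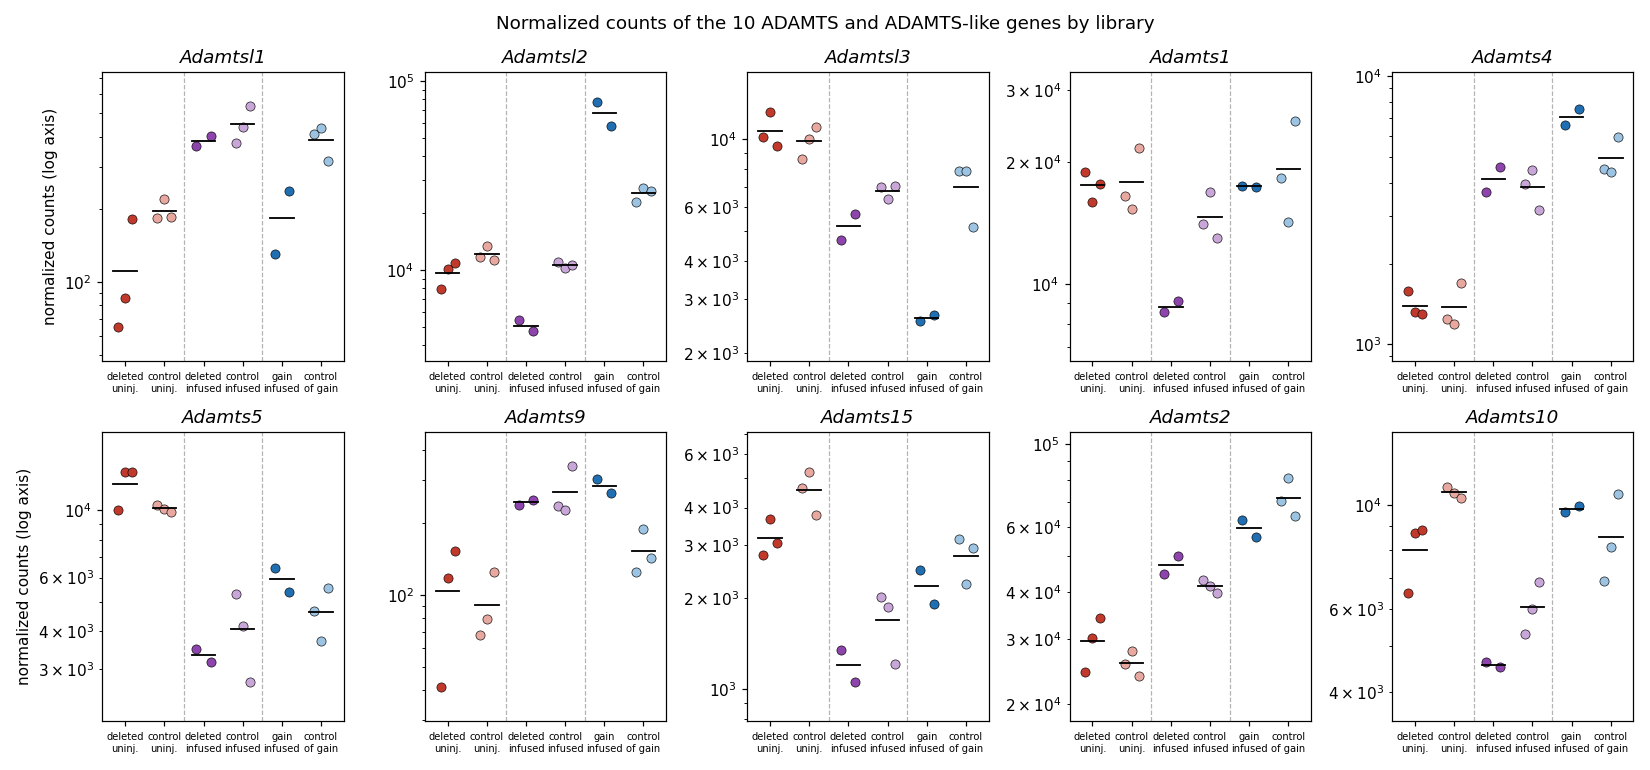
Normalized counts of each of the 10 genes in each library on a logarithmic axis, with a bar at the group mean; dashed lines separate the 3 tables, which were normalized separately. Adamtsl2 separates deleted from control and gain from control with infusion, and Adamts1 lies at 8532 and 9083 in deleted infused libraries, below controls at 14079, 16825 and 13013.

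The proteoglycan-cleaving proteases are Adamts1, Adamts4, Adamts5, Adamts9 and Adamts15, which act on versican and aggrecan. None of these 5 passed in any comparison as fitted here, with all libraries, no weights and no block. Adamts1 and Adamts5 are neighbours on the minus strand of chromosome 16, at 85793827-85803113 and 85856173-85901828, with 53059 bases between them. In deleted infused fibroblasts Adamts1 had 8532 and 9083 normalized counts, against 14079, 16825 and 13013 in controls. The groups did not overlap, and the mean was 1.65-fold lower (log2 fold change -0.73, SE 0.13, 95% interval -1.04 to -0.41, limma adjusted p = 0.0741). With library weights it passed (-0.83, adjusted p = 0.0374), in a range over alternatives of 0.00170 to 0.365. In uninjured hearts deleted libraries (18939, 15964 and 17629) overlapped controls (16489, 15281 and 21677), with a log2 fold change of -0.01 (95% interval -0.31 to 0.28). Gain libraries, at 17454 and 17356, lay inside the range of their controls, at 18211, 14248 and 25246. The loss effect with infusion minus that without was -0.71 (SE 0.21, adjusted p = 0.291).

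Adamts5 overlapped its controls in all 3 comparisons. With infusion it had 3499 and 3176 normalized counts in deleted libraries, inside the range of the controls at 5293, 4167 and 2729. Uninjured deleted libraries had 10002, 13311 and 13355, against 10429, 10118 and 9881 in controls (log2 fold change 0.26, 95% interval -0.00064 to 0.51, adjusted p = 0.237). Without the first deleted library, the low one, the value was 0.39 and passed (adjusted p = 0.0208, range over alternatives 0.0208 to 0.481). Gain libraries had 6472 and 5393, against 4644, 3705 and 5525 in controls. Of the 3 log2 fold changes for Adamts5 in those fits, -0.23 in deleted infused, 0.26 in deleted uninjured and 0.37 in gain fibroblasts, none passed.

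Adamts4 lies on chromosome 1 at 171250421-171260637 (plus strand), and Adamts9 on chromosome 6 at 92772699-92943492 (minus strand). Both were higher in gain libraries without overlap and without passing. Adamts4 had 6559 and 7563 normalized counts in gain libraries, against 4510, 4397 and 5940 in controls (log2 fold change 0.52, SE 0.15, adjusted p = 0.102); without the third control it was 0.66 and passed (adjusted p = 0.0166), and with library weights and all libraries it passed too (adjusted p = 0.0298, range over alternatives 0.00373 to 0.414). Adamts9 had 303 and 267 in gain libraries, against 125, 189 and 142 in controls (log2 fold change 0.92, SE 0.23, adjusted p = 0.0758). Under deletion both overlapped their controls in both settings, with log2 fold changes between -0.11 and 0.11. For Adamts9 in uninjured hearts the 95% interval was -1.06 to 1.15, an interval that holds a 2-fold change in either direction.

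Adamts15, on chromosome 9 at 30899155-30922452 (minus strand), had a mean below that of its controls in all 3 comparisons. Uninjured deleted libraries had 2778, 3656 and 3046 normalized counts, against 4659, 5248 and 3783 in controls, with no overlap (log2 fold change -0.53, SE 0.14, adjusted p = 0.0735). Deleted infused libraries had 1345 and 1060, against 2016, 1870 and 1218, and overlapped. Gain libraries had 2483 and 1921, against 3154, 2235 and 2932, and overlapped too. No comparison passed for Adamts15.

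Adamts2, the procollagen N-propeptidase, lies on chromosome 11 at 50602084-50807573 (plus strand) and was the member with the most RNA per kb in 4 of the 6 groups. Deleted infused libraries had 44842 and 49948 normalized counts, against 43105, 41533 and 39878 in controls. Gain libraries had 62618 and 56141, against 70152, 81061 and 63993 in controls. Neither pair of groups overlapped: deletion lay above its controls and gain below, by log2 fold changes of 0.19 (95% interval -0.13 to 0.51, adjusted p = 0.518) and -0.27 (95% interval -0.62 to 0.08, adjusted p = 0.366). The gain effect minus the loss effect was -0.46 (SE 0.19, adjusted p = 0.265). Uninjured deleted libraries had 24378, 30205 and 34049, against 25644, 27892 and 23893, and overlapped.

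Adamts10, whose product binds fibrillin-1 and which is mutated in the human disorder Weill-Marchesani syndrome, lies on chromosome 17 at 33524204-33553782 (plus strand). Uninjured deleted libraries had 6486, 8697 and 8826 normalized counts, against 10925, 10597 and 10350 in controls. Deleted infused libraries had 4623 and 4524, against 5325, 6000 and 6856 in controls. The groups did not overlap in either setting, and the log2 fold changes were -0.42 without infusion (SE 0.12, adjusted p = 0.0846) and -0.40 with infusion (SE 0.12, adjusted p = 0.205); their difference was 0.02 (95% interval -0.38 to 0.43). Without infusion the value passed under quantile normalization and under library weights, both at an adjusted p of 0.0483, in a range of adjusted p over alternatives of 0.0483 to 0.248. Gain libraries had 9673 and 9926, inside the controls at 6895, 8143 and 10545. The gain effect minus the loss effect was 0.62 (SE 0.23, adjusted p = 0.206), and without the third gain control 0.79 (adjusted p = 0.0493, range over alternatives 0.0254 to 0.403).

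**Figure D3:**
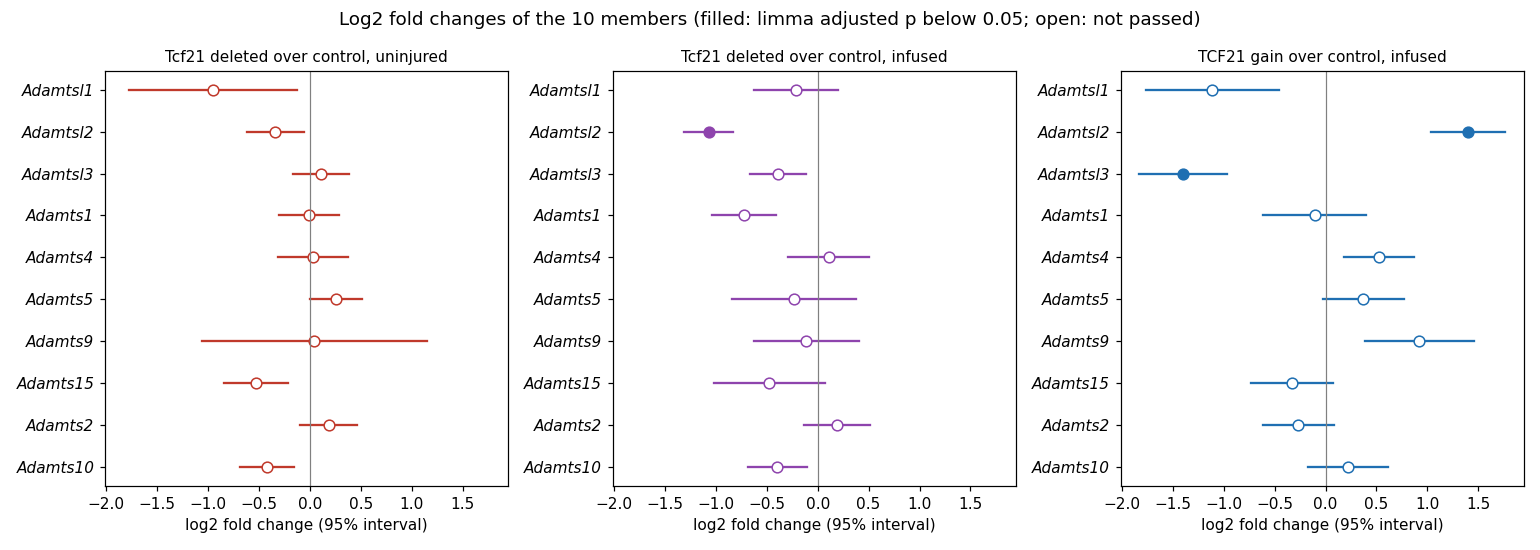
Log2 fold changes of the 10 genes in the 3 comparisons, with 95% intervals from limma; filled points passed an adjusted p of 0.05. Adamtsl2 is at -1.07 in deleted and 1.40 in gain fibroblasts with infusion, Adamtsl3 is at -1.40 in gain fibroblasts, and all other points are open.

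Read against all genes, the 10 members did not stand out in uninjured hearts. There 0 of 10 passed by limma, beside 1.63% of genes that rose and 1.96% that fell, and 4 had an unadjusted p under 0.05, beside 21.2% of all genes. Those 4 (Adamtsl1, Adamtsl2, Adamts15 and Adamts10) were also the members whose groups did not overlap, all with deleted libraries below controls. Over all genes 27.7% did not overlap in either direction. With infusion, 5 of 10 members did not overlap between deleted and control libraries, beside 35.0% of genes, and 8 of 10 had a log2 fold change under 0, 4 of them at an unadjusted p under 0.05 beside 16.1% of all genes, with a median of -0.31 against 0.00017 over all genes. In gain fibroblasts 1 of 10 members rose and 1 fell, beside the 1.57% and 2.57% of genes given above, and 5 had an unadjusted p under 0.05, beside 20.4% of genes. There 6 of 10 did not overlap, beside 39.3% of genes, and 5 of 10 log2 fold changes were above 0 and 5 below it. The median size of the log2 fold change, sign ignored, was 0.22, 0.31 and 0.45 over the members in the uninjured loss, infused loss and gain comparisons, against 0.22, 0.21 and 0.20 over all genes. The sign differed between infused loss and gain for 5 of 10 members, 50%, and for 44.1% of 14319 genes.

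Levels were compared between members only as normalized counts per kb of the longest annotated transcript, within a group. Adamts2 and Adamts1 led in uninjured hearts, at 4066 ± 670 and 3585 ± 305 per kb in deleted and 3552 ± 276 and 3648 ± 696 in control libraries, and their ranges overlapped in both groups (SD, n = 3). In the infused Tcf21-MerCreMer controls the order was Adamts2, Adamts1, Adamtsl2, and in the deleted infused libraries Adamtsl2 was 5th, its range overlapping that of Adamts4. In gain libraries Adamtsl2 was 1st, at 11372 ± 2387 per kb and clear of Adamts2 at 8172 ± 630 (SD, n = 2). In gain controls Adamtsl2 was 2nd, at 4275 ± 371, and overlapped Adamts1 at 3938 ± 1140 (SD, n = 3).

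The share of Adamtsl2 in the summed per-kb counts of the 10 members shows the same shifts. It was 36.8% to 42.8% in gain libraries and 17.5% to 19.4% in their controls. It was 6.11% to 7.56% in deleted infused libraries and 11.5% to 12.9% in their controls. In uninjured hearts it was 10.02% to 11.7% in deleted and 12.1% to 14.7% in control libraries. Adamtsl3 took 1.15% to 1.39% in gain libraries and 2.97% to 4.93% in controls. The higher Adamtsl2 value enlarges the sum in gain libraries, which by itself lowers the shares of the other members. Per kb, Adamtsl3 averaged 358 in gain libraries and 963 in controls. Adamts9 and Adamtsl1 held the last 2 places in all 6 groups.

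**Figure D4:**
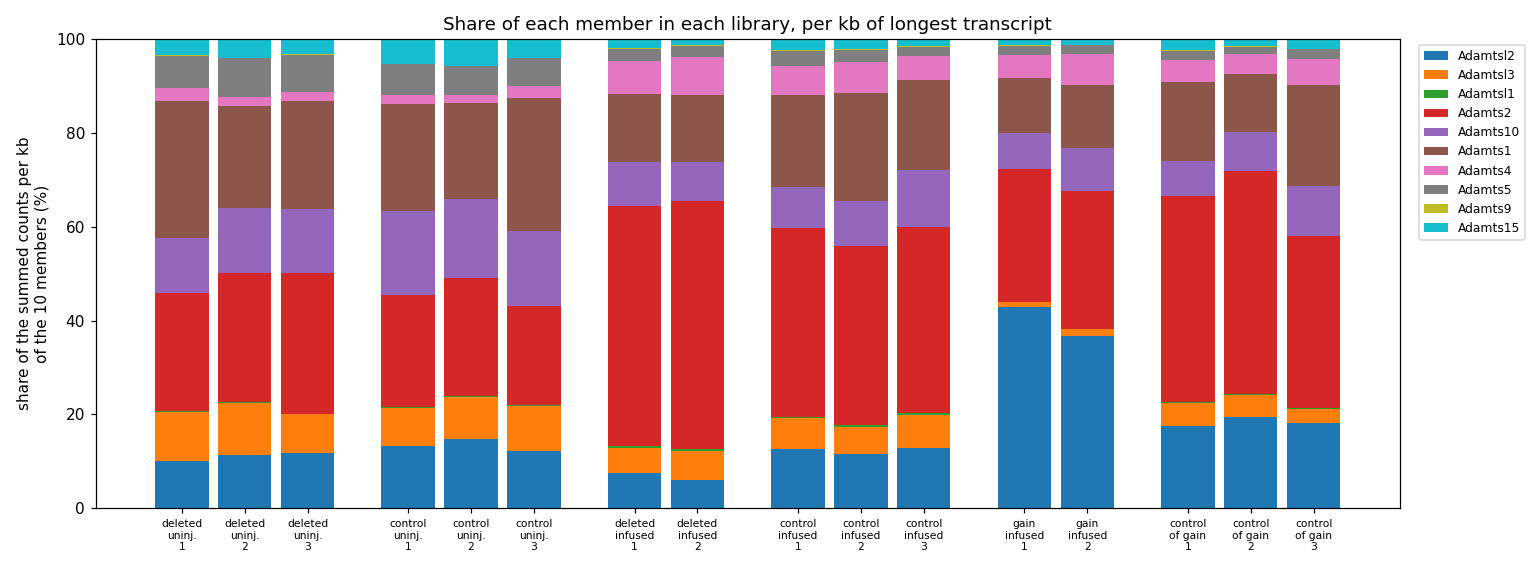
Share of each gene in the summed normalized counts per kb of the 10 genes, 1 bar per library, in percent. The Adamtsl2 segment takes 36.8% to 42.8% of the bar in gain libraries, 17.5% to 19.4% in their controls and 6.11% to 7.56% in deleted infused libraries.

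Other genes of the superfamily were read from the same fits. For single genes outside the 10 members, here and in the lists that follow, dependence on the alternative settings was not analysed. Of 12 further protease genes and 4 further ADAMTS-like genes on the list, 13 could be tested without infusion and 14 in each infused table; Adamts13 and Adamts18 were not analysed here. In uninjured hearts Adamts12, a protease that can cleave cartilage oligomeric matrix protein, fell to 1023 ± 53.0 in deleted libraries, against 1511 ± 220 in controls (log2 fold change -0.55, limma adjusted p = 0.0476), and the other 12 did not pass; over all genes there 1.96% fell. With infusion none of the 14 passed under deletion; 2 had an unadjusted p under 0.05, both below controls, beside 16.1% of all genes. In gain fibroblasts 1 of 14 rose and 2 fell, beside the 1.57% of all genes that rose and the 2.57% that fell. There 6 of 10 proteases and 4 of 4 ADAMTS-like genes had an unadjusted p under 0.05, beside 20.4% of all genes. As many did not overlap between gain and control libraries, beside 39.3% of all genes. Without infusion 2 of 9 proteases and 1 of 4 ADAMTS-like genes had an unadjusted p under 0.05, beside 21.2%. Adamts16, a protease known to cut fibronectin, had 183 and 169 normalized counts in gain libraries, against 1104, 1298 and 637 in controls, and fell 5.49-fold (log2 fold change -2.46, SE 0.28, adjusted p = 0.00865). Adamtsl4, a fibrillin-binding protein, fell 1.68-fold, to 4176 ± 855 in gain libraries against 6936 ± 460 in controls (adjusted p = 0.0284). Thsd4, also named ADAMTSL6 and known to promote fibrillin-1 microfibril assembly, rose 2.60-fold, to 300 ± 59.8 against 114 ± 8.71 (adjusted p = 0.0186). Of the 10 further proteases tested in gain, 8 lay above 0, with a median log2 fold change of 0.39 against 0.0066 over all genes. Under deletion with infusion Adamts16 had 345 and 815 normalized counts, against 31.9, 217 and 446 in controls. The groups overlapped (log2 fold change 1.85, SE 1.03, limma adjusted p = 0.420). The difference of the gain and loss effects was large but wide for Adamts16 (-4.31, SE 1.24, limma adjusted p = 0.110) and did not pass. Nor did it pass for Adamtsl4 (-0.42, SE 0.26, adjusted p = 0.462) or Thsd4 (1.05, SE 0.65, adjusted p = 0.461). Adamts3, a further protease, did pass it, at 0.90 (SE 0.18, limma adjusted p = 0.0303), beside 2.93% of all genes. Its log2 fold changes were 0.53 in gain and -0.37 in infused loss, neither past the threshold.

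**Figure D5:**
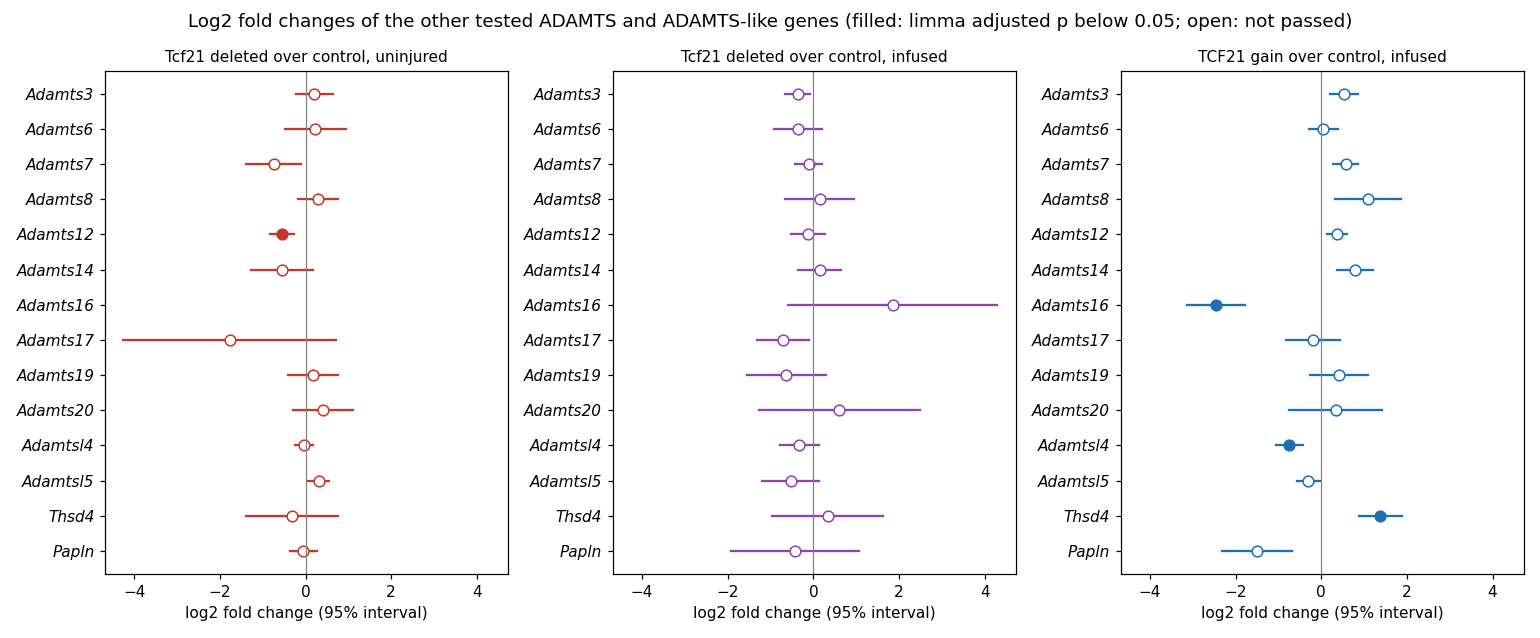
Log2 fold changes, with 95% intervals from limma, of the tested ADAMTS and ADAMTS-like genes outside the 10; filled points passed an adjusted p of 0.05, and Adamts16 was not analysed in the uninjured comparison. Adamts12 is filled at -0.55 in uninjured deleted fibroblasts, and Adamts16 (-2.46), Adamtsl4 (-0.75) and Thsd4 (1.38) are filled in gain fibroblasts.

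Genes that act with these proteins were then read from the same fits. Timp3, a tissue inhibitor of metalloproteases that acts on several ADAMTS proteases, had 25631 and 18607 normalized counts in gain libraries, against 57566, 61153 and 47809 in controls. It fell 2.53-fold (log2 fold change -1.34, SE 0.17, limma adjusted p = 0.0115). The gain effect minus the loss effect on Timp3 with infusion was -1.39 (SE 0.23, limma adjusted p = 0.0144). Over all genes 2.93% passed that comparison. Sdc4, a cell-surface heparan sulfate proteoglycan, fell to 1739 ± 269 against 2548 ± 153 (adjusted p = 0.0467). Under gain, of 12 tested genes of ADAMTS maturation, inhibition and clearance, these 2 fell and 10 did not pass, beside the 2.57% of all genes that fell. Of the 10 tested in each loss comparison, none passed by limma, and 2 without and 4 with infusion had an unadjusted p under 0.05, beside 21.2% and 16.1% of all genes.

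Among genes of the fibrillin microfibril, to which Adamtsl2, Adamts10, Adamtsl4 and Thsd4 products bind or contribute, 1 of 11 rose and 1 fell under gain, beside 1.57% and 2.57% of all genes. Fbn2, fibrillin-2, rose to 8284 ± 196 in gain libraries against 5139 ± 918 in controls (adjusted p = 0.0443). Ltbp1, the latent TGF-beta binding protein that ADAMTSL2 can bind, fell to 11152 ± 656 against 17009 ± 2166 (adjusted p = 0.0455). Under deletion with infusion Ltbp1 was lower too, at 8080 ± 648 against 11543 ± 562 in controls. Those groups did not overlap, and the value did not pass (log2 fold change -0.52, limma adjusted p = 0.0886). The gain effect minus the loss effect on Ltbp1 was -0.09 (SE 0.16, limma adjusted p = 0.835). By limma none of the 11 passed in uninjured deleted fibroblasts and none of 10 with infusion, with 2 and 1 at an unadjusted p under 0.05, beside 21.2% and 16.1% of all genes. The procollagen genes and their processing enzymes had no gene past the threshold in any comparison, of 8 (uninjured loss), 9 (infused loss) and 10 (gain) tested, with 2, 1 and 2 of them at an unadjusted p under 0.05, beside 21.2%, 16.1% and 20.4% of all genes.

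A list of proteoglycan substrates, their link proteins and other matrix substrates of ADAMTS proteases had 7 tested genes in uninjured loss, 8 in infused loss and 8 in gain. In uninjured loss 1 rose, beside 1.63% of all genes, and in gain 1 fell, beside 2.57%. In infused loss 0 passed. In that order of settings 3, 1 and 3 had an unadjusted p under 0.05 in uninjured loss, infused loss and gain, beside 21.2%, 16.1% and 20.4% of all genes. Comp, cartilage oligomeric matrix protein, a thrombospondin-family glycoprotein, was the gene of that list that passed. It rose in uninjured deleted fibroblasts, to 8046 ± 768 against 3783 ± 551 (adjusted p = 0.00319), and fell in gain fibroblasts, to 9125 ± 3290 against 28713 ± 7742 (adjusted p = 0.0205). In deleted infused libraries it was at 10868 and 10735, against 19610, 22778 and 30295 in controls, and did not pass (adjusted p = 0.0534). The loss effect on Comp with infusion minus that without was -2.24 (SE 0.23, limma adjusted p = 0.00157) and passed, beside 0.149% of all genes. The gain effect minus the loss effect with infusion was -0.53 and did not pass (adjusted p = 0.527). Vcan, versican, named here after its values were seen, did not pass in any comparison. Its 95% interval was -0.17 to 0.23 in uninjured loss, -0.43 to 0.10 in infused loss and 0.18 to 1.14 in gain.

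Marker sums were also set beside these results. The 6 fibroblast markers summed to 2359370 to 2859930 in deleted infused libraries, against 2215600 to 2238400 in controls. In gain libraries they summed to 2100550 to 2384240, against 2575950 to 3345470 in controls, so neither pair of sums overlapped, the deleted libraries above and the gain libraries below. By limma 0 of 6 passed in either, with 1 and 2 at an unadjusted p under 0.05, beside 16.1% and 20.4% of all genes. Col3a1 and Col1a1 held the largest values, with means of 1435450 and 847485 in deleted infused libraries. Gene by gene, 3 of the 6 lay above 0 and 3 below in infused loss, with a median log2 fold change of -0.0049. Under gain 1 lay above 0 and 5 below, with a median of -0.30. In uninjured deleted libraries 3 of 6 mural cell markers fell (Cspg4, Kcnj8 and Abcc9), beside 1.96% of all genes. The 6 summed to 8056 to 9360 in deleted and 12528 to 14415 in control libraries. Immediate early genes, which respond to cell handling as well as to signals, were below controls in 12 of 12 cases in both infused comparisons. Over all genes 7397 of 14799 in infused loss and 7528 of 15369 in gain had a log2 fold change under 0. The immediate early genes summed to 212513 to 261975 in deleted infused and 306504 to 474183 in control libraries. Of the 12, 0 passed the limma threshold and 10 had an unadjusted p under 0.05, beside 16.1% of all genes. In gain libraries their sums were 317074 to 375246, against 514260 to 756390 in controls. There Fosb, Ier3, Zfp36 and Btg2 fell, 4 of 12, beside 2.57% of all genes, and 12 had an unadjusted p under 0.05, beside 20.4%. Of 6 myeloid markers, 5 were listed in the infused loss table, where they summed to 391 to 681 in deleted and 705 to 863 in control libraries. Cd74 fell there, 1 of 4 tested, beside 0.588% of all genes. In gain libraries the 6 summed to 2137 to 4263, against 1891 to 3070 in controls. Of 6 blood markers 4 were listed in the infused loss table, where they summed to 148 to 334 in deleted and 57.4 to 74.5 in control libraries. Hba-a1 rose there, 1 of 3 tested, beside 0.324% of all genes. The 4 listed in the gain table summed to 180 to 228 in gain libraries, against 72.4 to 113 in controls. In uninjured hearts, 5 blood markers summed to 201 to 789 in deleted and 191 to 199.9 in control libraries, and 6 myeloid markers to 1173 to 1875 in deleted and 1057 to 1153 in control libraries. The part of these markers in the results for the 10 genes was not tested.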

How the data were processed

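RNA was taken from sorted cardiac fibroblasts and amplified with a low-input SMART-seq kit, per the labels' protocols. The submitters' processing notes name kallisto, DESeq2 and GRCm38, with no versions given. Each of the 3 deposited tables was normalized by the authors on its own and holds a signal, namely estimated counts per gene after scaling. Whole reads were not recovered from them, so no count model was fitted, and read depth per library is unknown.

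Groups came from the labels. Genes with a table mean of at least 10 (15544, 14799 and 15369 genes in the uninjured loss, infused loss and gain tables) were tested with limma 3.58.1 under R 4.3.3 after adding 1 and taking log2 (variance trend, two-sided, Benjamini-Hochberg over all genes tested), with no covariate; this scale understates changes of low genes. Effects were compared between tables as differences of log2 fold changes in 1 model over 4 groups, in which a scale shared by a whole table cancels. Positions and transcript lengths are from GENCODE for GRCm38, promoters from RefSeq.

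The 10 members and all lists were chosen with earlier results of these data known. All 10 members are named, other lists by members past the threshold (at most 4 a comparison). Replicate numbers were not taken as pairs. Deviations from group means correlated at -0.054 to 0.176 for same-numbered and -0.230 to 0.230 for different-numbered libraries. In both infused tables the tested group held 2 libraries, whose deviations mirror each other, so this check cannot exclude pairing. Alternatives varied the pseudocount, filter, scaling, variance trend, library weights, replicate block and each library. The fits were first tested on simulated data.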

Additional observations from a re-analysis of the deposited data

Results flagged for a closer look

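Adamtsl2 responded differently to gain and to loss of TCF21 under infusion. Its log2 fold change was 1.40 in gain fibroblasts and -1.07 in deleted fibroblasts, and the test of the difference itself gave 2.47 (SE 0.19, limma adjusted p = 0.000199, 5 libraries a comparison). Both gain libraries were above all 3 of their controls, and both deleted libraries were below all 3 of theirs. The Cre allele, the table and its normalization differ between the comparisons along with the direction of the TCF21 change, so their parts in the difference cannot be told apart.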

How the results depend on the processing

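Single values were followed for the 10 members in the 3 comparisons and, for the differences between comparisons, only for the 3 and 6 members with an unadjusted p under 0.05. Of 604 such values under alternative settings, 557 kept their direction and side of the threshold; pseudocounts of 0.5 and 5, no filter, a filter at 50 and median ratio scaling changed none of them. Counts of members passing cover all 10 in every comparison. Genes passing numbered 557 (uninjured loss), 135 (infused loss), 637 (gain), 21 (loss with minus without infusion) and 420 (gain minus loss). Without the variance trend the first 3 and the last were 94, 72, 25 and 263; with library weights all 5 were 949, 308, 1013, 39 and 780. Leaving out single libraries gave 88 to 891, 32 to 175, 124 to 821, 12 to 57 and 155 to 436. Members passing numbered 0, 1, 2, 0 and 1 in the same order. Without the trend, 0 passed in infused loss (Adamtsl2 at adjusted p = 0.0562) and 0 in gain (Adamtsl2 at 0.0670, Adamtsl3 at 0.0900). With weights 1, 2, 4 and 2 passed in uninjured loss, infused loss, gain and gain minus loss; quantile normalization gave 1 in uninjured loss and 2 in gain minus loss; leaving out single libraries gave 0 to 1, 0 to 1, 1 to 3, 0 to 1 and 1 to 3. The replicate numbers were not taken as pairs in the main fits. A replicate block gave 227, 1462, 1842, 79 and 901 genes, with 4, 6 and 6 members in infused loss, gain and gain minus loss. Signs turned only for members that had not passed. Adamts1 was at 0.024 (uninjured) and 0.0023 (gain) with weights, 0.11 (gain) with the block, and -0.11 to 0.14 (uninjured) and -0.30 to 0.11 (gain) with libraries left out. Adamts4 was at -0.028 with the block in infused loss, -0.066 to 0.19 (uninjured) and -0.048 to 0.26 (infused) with libraries left out. Adamts9 was at 0.082 with the block in infused loss, and -0.32 to 0.60 (uninjured) and -0.22 to 0.082 (infused) with libraries left out. The cause was not tested. Groups held 2 or 3 libraries, and read depth is unknown.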
